A study of Homo sapiens with 12 samples.

Results

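The replication-dependent histone genes encode the H1 linker histone and the H2A, H2B, H3 and H4 core histones that package newly made DNA. They were taken as every row of the deposited count table whose gene name was H1-1 to H1-5 or began with H2AC, H2BC, H3C or H4C followed by a number. This rule found 59 of 32010 genes, 48 in the histone cluster on chromosome 6 and 11 in the smaller cluster on chromosome 1. They comprised 5 H1, 15 H2A, 16 H2B, 12 H3 and 11 H4 genes.

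The RNA was poly(A)-selected RNA of HEK293 Flp-In cells. HEK293 is an embryonic kidney line of human origin, and Flp-In cells carry a genomic site into which a transgene can be placed. The 12 libraries formed 4 groups of 3. The ΔE8 group received a TAF5 siRNA and an induced, siRNA-resistant TAF5 without exon 8, the FL group the same siRNA and an induced, siRNA-resistant full-length TAF5, the siTAF5 group the TAF5 siRNA without a rescue named in its label, and the siNT group a non-targeting siRNA. TAF5 is a subunit of TFIID, the general factor that binds core promoters of genes read by RNA polymerase II. The study asked whether exon 8 of TAF5 affects gene expression. Doxycycline was given 24 h after transfection for 48 h, and the treatment label of all 12 libraries names siRNA together with doxycycline. A single TAF5 siRNA was used, the rescue proteins came from doxycycline-inducible transgenes, and the labels do not say which line carried the siNT and siTAF5 treatments. Whether the 3 replicates of a group were grown as separate cultures is not stated, so a p-value covers only the spread among these libraries, and that spread may be technical.

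Most messenger RNAs end in a poly(A) tail, but replication-dependent histone mRNAs typically end just after a short stem-loop, which is bound by the stem-loop binding protein SLBP. They are made in large amounts in S phase, from genes in clusters that share the coactivator NPAT, and are degraded when DNA synthesis stops. Some of these genes also yield transcripts that run past the stem-loop to a poly(A) signal, and these are the form that a poly(A)-selected library can capture. The levels below are those of histone RNA in poly(A)-selected libraries, and the 3′ ends of the captured RNA were not measured. In these bulk samples, fewer cells that make a transcript and less of it per cell cannot be told apart.

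The stem-loop was looked for in the GENCODE 29 transcripts of the members, because it marks the end that a poly(A)-selected transcript has to pass. Of 55 members found there by gene ID, 26 had an exact stem-loop of 16 bases in an annotated transcript, and 14 had a transcript that went at least 100 bases further and carried AATAAA within the last 40 bases. Of the 15 genes in the 12 genes or pairs with the most counts, described in full below, 7 had such a transcript. H1-2, H2BC11 and H2BC12 had no exact stem-loop in their annotated transcripts, and H2AC18 and H2AC19 were not among the members found by ID. Transcript ends missing from the annotation were not searched, so no match says only that these letters were not in the transcript models. The most frequent form, found in 13 genes, is shown for H2BC21 on chromosome 1 at chr1:149886188-149886203, minus strand. The form with another loop base, found in 4 genes, is shown for H2BC5 on chromosome 6 at chr6:26158587-26158602, plus strand, and the form with G and C in the stem of H4 genes for H4C14 at chr1:149833032-149833047, plus strand (hg38, 5′ to 3′). Capitals mark the paired arms of the stem.
H2BC21: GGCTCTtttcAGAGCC
H2BC5: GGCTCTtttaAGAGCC
H4C14: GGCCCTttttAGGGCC
The H2BC21 transcript continued for 1729 bases after its stem-loop and the longest H4C14 transcript for 1167 bases, both to an AATAAA. The annotated H2BC5 transcript had only 39 bases after its stem-loop, and an AATAAA in them began 27 bases before the end.

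Promoters of 55 members were in the RefSeq table (GRCh38.p14), each with 250 bases before and 50 after the start. A TATA box, a CCAAT box and an octamer were searched on both strands, and none of these strings of letters is contained in another. TATAAA, the TATA box that TFIID contacts through its TBP subunit, was found in 39 of 55 members, against 11.5% of all 35116 promoters. CCAAT was found in 47 of 55 members, against 34.6% of all promoters, and these were all H1, H2A, H2B and H3 promoters with an entry and 1 of 9 H4 promoters. ATTTGCAT, the octamer read by OCT1, was found in 10 of 14 H2A and 13 of 16 H2B promoters and in no H1, H3 or H4 promoter, against 1.77% of all promoters. Neighbouring histone genes transcribed away from each other share part of these windows, so a motif between them can be counted for both genes. These matches describe letters and do not identify binding.

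The 120 bases before the start are printed for 6 members on which the results turn, from 4 classes and with the divergent neighbours H2BC21 and H2AC20. Capitals mark these motifs on either strand, so ATTGG marks a CCAAT box on the other strand. The regions are chr6:26056471-26056590 (minus strand) for H1-2, chr1:149842751-149842870 (minus) for H2AC18, chr6:27146856-27146975 (minus) for H2BC12, chr1:149886683-149886802 (minus) for H2BC21, chr1:149886798-149886917 (plus) for H2AC20 and chr1:149832537-149832656 (plus) for H4C14.
H1-2: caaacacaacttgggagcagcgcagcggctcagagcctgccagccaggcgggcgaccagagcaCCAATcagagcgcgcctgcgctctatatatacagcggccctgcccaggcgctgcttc
H2AC18: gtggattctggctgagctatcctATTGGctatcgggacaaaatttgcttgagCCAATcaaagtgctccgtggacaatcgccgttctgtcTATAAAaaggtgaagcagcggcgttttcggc
H2BC12: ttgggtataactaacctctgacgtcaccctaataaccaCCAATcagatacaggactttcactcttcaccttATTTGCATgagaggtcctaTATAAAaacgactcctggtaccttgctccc
H2BC21: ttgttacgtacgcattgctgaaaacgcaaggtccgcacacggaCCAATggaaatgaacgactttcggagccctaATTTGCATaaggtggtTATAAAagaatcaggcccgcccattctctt
H2AC20: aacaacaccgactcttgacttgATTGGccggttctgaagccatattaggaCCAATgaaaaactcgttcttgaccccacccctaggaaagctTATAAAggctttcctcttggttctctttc
H4C14: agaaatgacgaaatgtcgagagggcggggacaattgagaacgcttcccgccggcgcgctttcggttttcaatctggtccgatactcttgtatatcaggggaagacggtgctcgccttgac
The H2BC12 and H2BC21 windows hold all 3 motifs, and the H2AC18 and H2AC20 windows a TATA box on the same strand and CCAAT boxes on both strands. The H1-2 window holds CCAAT alone, and the H4C14 window none. The RefSeq promoter of H2AC20 is longer than the printed bases and reaches over the octamer printed for H2BC21. That octamer was thus counted for both neighbours.

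Short reads cannot tell apart 3 pairs of near-identical copies in an inverted duplication on chromosome 1, and their counts were added: H2AC18 and H2AC19, H3C14 and H3C15, and H4C14 and H4C15. In the RefSeq windows, the promoters of each pair were identical at all of 299, 296 and 300 aligned bases. After this sum there were 56 genes or pairs, of which 38 (41 genes) passed the filter on low counts and were tested. The 18 others reached at most 13.2 estimated counts in any library, and 6 of the 59 genes never exceeded 3. Levels are given as counts scaled to a common library size (CPM), with no scaling for transcript length, so they compare groups and not genes.

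As a check of the labels, TAF5 had 87.6, 87.5 and 88.9 CPM in ΔE8, 102.6, 105.5 and 107.4 CPM in FL, 6.13, 7.35 and 6.68 CPM in siTAF5 and 39.2, 40.5 and 40.2 CPM in siNT. Both rescue groups thus lay above siNT, by 1.14 ± 0.03 (ΔE8) and 1.39 ± 0.03 (FL) on the log2 scale (SE). Library totals were 41.8 to 62.5 M estimated counts. All 8 markers listed for the HEK293 line were detected. Of 5 blood markers and 3 endothelial markers, the sums stayed at or below 0.131 and 0.407 CPM in every library. The 5 fibroblast markers summed to 8.34 to 8.85 CPM in ΔE8, 8.79 to 10.3 CPM in FL, 10.5 to 11.3 CPM in siTAF5 and 17.1 to 17.6 CPM in siNT, with DCN, LUM and PDGFRB too low to test. The part of this difference in the histone results was not tested.

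Histone RNA in these libraries was highest after TAF5 knockdown, lowest after rescue with full-length TAF5, and between siTAF5 and siNT after rescue with ΔE8. All 59 genes together took 429.5, 428.5 and 440.3 CPM in ΔE8, 183, 176 and 184 CPM in FL, 578, 582 and 575 CPM in siTAF5 and 321, 307 and 310 CPM in siNT. No library of any group overlapped another group. The means were 433 ± 6.53, 181 ± 4.36, 578 ± 3.81 and 312 ± 7.11 CPM in the same order (SD, n = 3 each). The siTAF5 mean was thus 1.85 times the siNT mean, the FL mean was 3.19-fold lower than the siTAF5 mean, and the ΔE8 mean was 2.39 times the FL mean. A sum over genes was given no test.

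**Figure D1:**
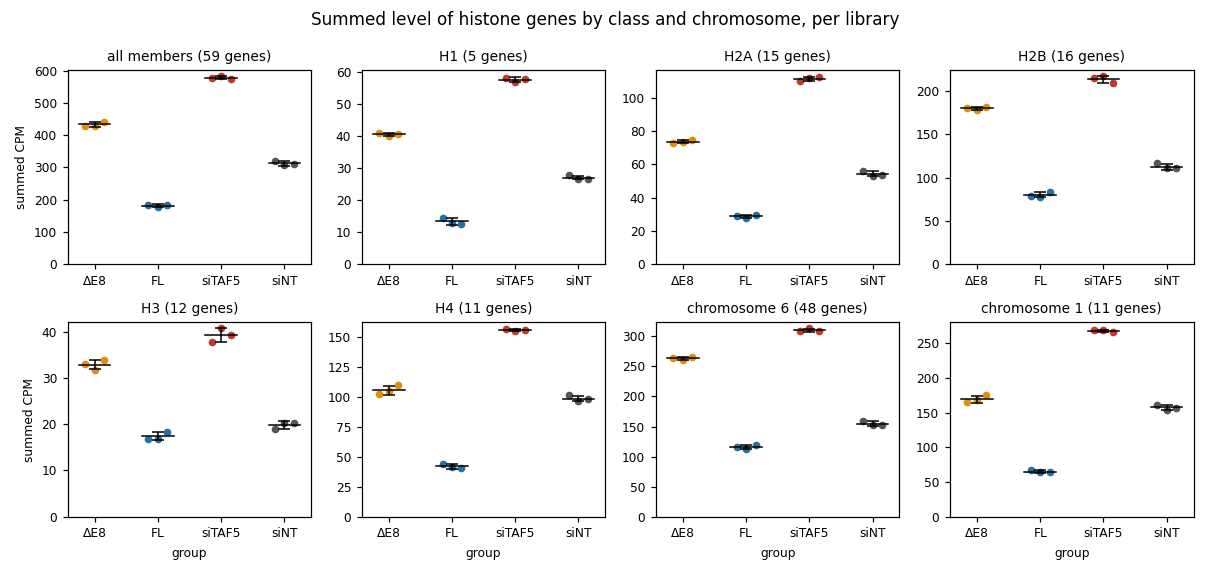
Summed CPM (y axis) of all 59 histone genes, of each class and of each chromosome by group (x axis); points are the 3 libraries, the line is the mean and the bar its SD. In the panel of all members ΔE8 lies near 433, FL near 181, siTAF5 near 578 and siNT near 312 CPM.

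The same order of FL lowest and siTAF5 highest held in each of the 5 class sums. H1 summed to 40.6 ± 0.565 CPM in ΔE8, 13.3 ± 1.07 in FL, 57.7 ± 0.797 in siTAF5 and 27.1 ± 0.622 in siNT. H2A summed to 73.7 ± 1.04, 28.7 ± 0.931, 112 ± 1.17 and 54.3 ± 1.55 CPM in ΔE8, FL, siTAF5 and siNT, and H2B to 180 ± 1.44, 79.9 ± 2.95, 214 ± 4.05 and 113 ± 3.52 CPM. These 3 classes had ΔE8 sums 1.36 to 1.60 times the siNT sums. H3 summed to 32.8 ± 1.02 CPM in ΔE8, 17.3 ± 0.861 in FL, 39.3 ± 1.47 in siTAF5 and 19.8 ± 0.826 in siNT, and H4 to 105 ± 3.88, 42.1 ± 2.01, 156 ± 0.524 and 98.6 ± 2.33 CPM. For H3 the ΔE8 sum was 166% and the FL sum 87.6% of the siNT sum, and for H4 the ΔE8 sum was 107% of the siNT sum. Single genes or pairs carried much of the counts of a class over the 12 libraries: H1-2 gave 95.2% of H1, the H2AC18 and H2AC19 pair 65.9% of H2A, H2BC12 63.2% of H2B, H3C10 58.6% of H3 and the H4C14 and H4C15 pair 93.4% of H4.

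In siTAF5 against siNT, 24 of the 38 tested histone genes or pairs were higher and none lower (edgeR quasi-likelihood test, Benjamini-Hochberg adjusted p under 0.05 over 19421 rows). Of all rows tested, 24.7% were called higher and 25% lower in this comparison. The median log2 change was 0.79 over the 38 members and 0.00 over all rows. At least a 2-fold difference was seen in 12 of the 38, against 2.68% of all rows. A gene at low counts can pass the filter through the one group in which it is high, so counts over the 38 describe the genes that were measurable and not all 59. Higher members came from every class: 2 of 4 H1, 6 of 10 H2A, 8 of 11 H2B, 5 of 5 H3 and 3 of 8 H4.

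In FL against siTAF5, 22 of the 38 were lower and 1, H2AC20, was higher, where 24.4% of all rows were called lower and 24.4% higher. The median log2 change was −0.83 over the members and −0.01 over all rows, and 16 members differed at least 2-fold, against 2.75% of all rows. In ΔE8 against siTAF5, 11 of the 38 were lower and 1, H4C8, was higher, with 20.5% of all rows lower and 20% higher. Here the median over the members was −0.15 and no member reached 2-fold, against 1.53% of all rows. The count of lower members ran from 8 to 11 without 1 library. With DESeq2 it was 8 of the 38, near the share of all rows (3432 of 19421 lower). The H2AC6, H2BC5 and H2AC11 calls were then lost (adjusted p = 0.0838, 0.0538 and 0.107). Both comparisons share the siTAF5 libraries, and so does the comparison of knockdown with control.

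Set directly against FL, ΔE8 had 18 of the 38 higher and none lower, with 17.3% of all rows called higher and 19.7% lower. The median log2 change was 0.86 over the members and −0.01 over all rows, and 10 members differed at least 2-fold, against 1.17% of all rows. These 6 libraries are not among those of the comparison of siTAF5 with siNT. Against siNT, FL had 11 of the 38 lower and 3 higher (26.8% of all rows lower and 27.8% higher), and ΔE8 had 23 higher and none lower (30.8% of all rows higher and 31.4% lower). The 12 genes or pairs that averaged at least 5 CPM over the libraries are described below by class, and all 12 were called higher in siTAF5 against siNT, lower in FL against siTAF5 and higher in ΔE8 against FL.

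**Figure D2:**
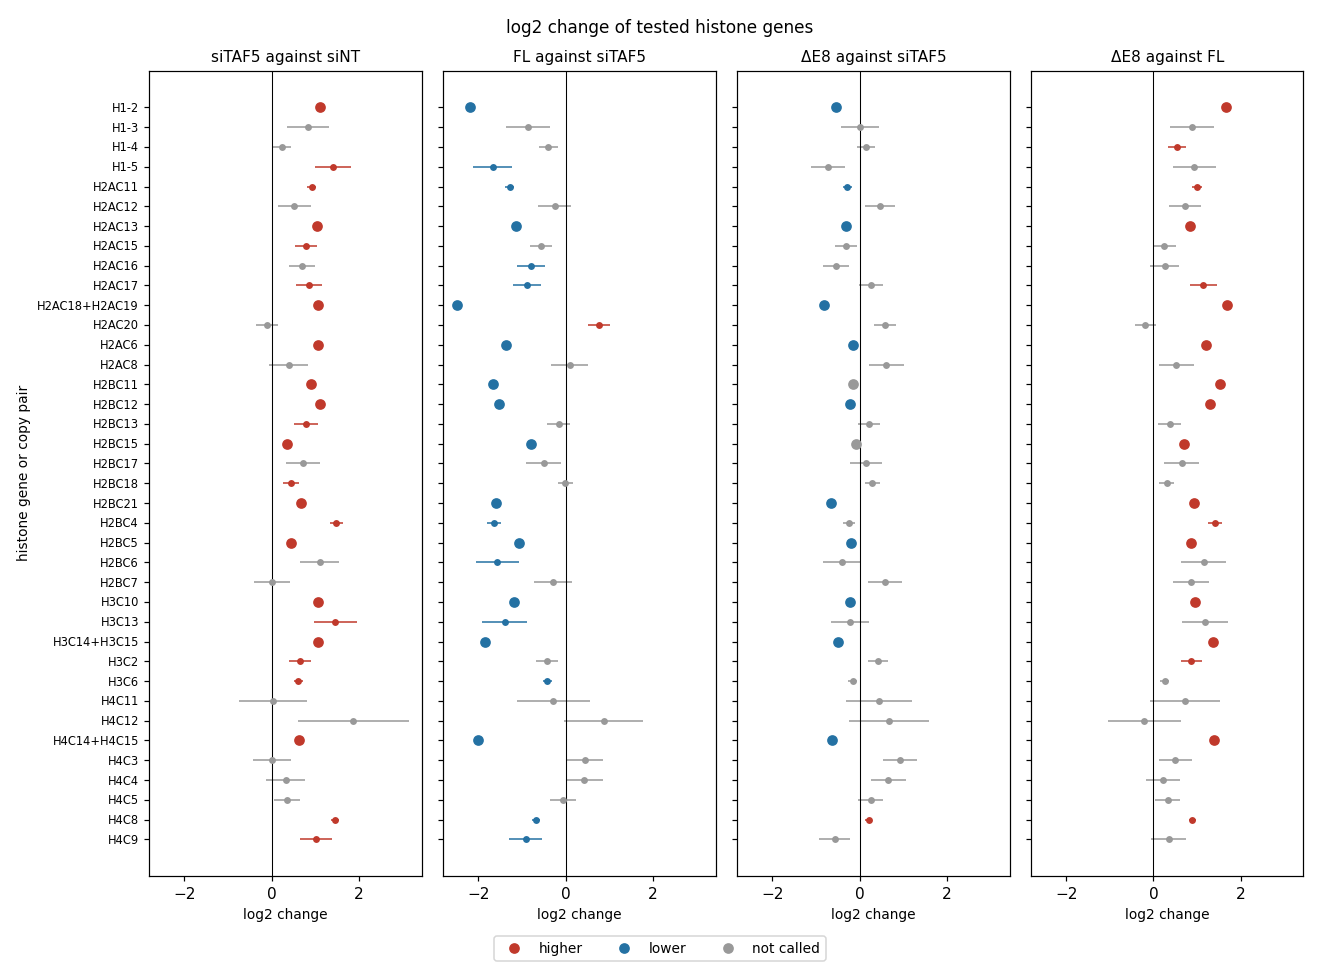
log2 change (x axis, points with bars of 1 SE) of the 38 tested histone genes or copy pairs (y axis) in 4 comparisons; red marks higher, blue lower and grey not called, and large points the 12 with a mean of at least 5 CPM. Every called point in the ΔE8 against FL panel and in the siTAF5 against siNT panel lies right of 0, while in FL against siTAF5 only H2AC20 is called to the right.

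Among linker histones, which bind the DNA entering and leaving the nucleosome, H1-2 (chr6:26055740-26056470, minus strand) held most counts. It had 39.5, 37.8 and 38.4 CPM in ΔE8, 13.1, 11.5 and 11.5 CPM in FL, 56.4, 55.0 and 55.8 CPM in siTAF5 and 26.2, 25.01 and 25.7 CPM in siNT. The groups did not overlap, and FL lay under siNT in every library. The log2 change was 1.12 ± 0.04 in siTAF5 against siNT (2.17-fold, adjusted p = 2.5e-14), −2.20 ± 0.04 in FL against siTAF5 (4.597-fold lower, adjusted p = 2.89e-18) and 1.67 ± 0.05 in ΔE8 against FL (3.18-fold, adjusted p = 1.74e-15). Of the 3 other tested H1 genes, H1-5 was called in siTAF5 against siNT (1.41 ± 0.42, adjusted p = 0.00832) and in FL against siTAF5 (−1.67 ± 0.45, adjusted p = 0.00426). These calls rested on few counts: 18, 12 and 8 in ΔE8, 9, 7 and 2 in FL, 12, 27 and 25 in siTAF5 and 6, 15 and 5 in siNT. A gene at such counts can pass the filter through the groups in which it is high. H1-4 was called in ΔE8 against FL alone, by 0.54 with adjusted p = 0.0482, and this call was lost under several settings, among them without FL replicate 3 (adjusted p = 0.146). H1-3 was called nowhere.

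The H2A gene pair H2AC18 and H2AC19 (chr1:149842218-149842750, minus strand, and chr1:149851061-149851594, plus strand) had the largest log2 decrease of the 38 in FL against siTAF5. The pair had 44.5, 45.4 and 46.1 CPM in ΔE8, 14.4, 13.8 and 14.2 CPM in FL, 79.1, 79.8 and 79.0 CPM in siTAF5 and 38.8, 37.1 and 37.9 CPM in siNT. Libraries within a group differed little, with a mean coefficient of variation of 1.65%, and no groups overlapped. The log2 change was 1.07 ± 0.03 in siTAF5 against siNT, −2.48 ± 0.03 in FL against siTAF5 (5.60-fold lower, adjusted p = 4.76e-21) and 1.68 ± 0.04 in ΔE8 against FL. In ΔE8 the pair was 0.26 ± 0.03 above siNT (adjusted p = 3.76e-07), and in FL against siNT it fell by 1.42.

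H2AC6 on chromosome 6 had 13.85, 13.97 and 14.01 CPM in ΔE8, 5.77, 5.86 and 6.47 CPM in FL, 15.1, 15.98 and 15.6 CPM in siTAF5 and 7.69, 6.94 and 7.82 CPM in siNT. It stood apart in each group, but ΔE8 was near siTAF5, with a log2 change of −0.16 ± 0.05 (adjusted p = 0.0241) that was not called by DESeq2 (adjusted p = 0.0838) or without any 1 of 5 libraries, siTAF5 replicates 2 and 3 and the 3 ΔE8 replicates (adjusted p 0.0575 to 0.126). H2AC13 had 7.57, 7.87 and 7.53 CPM in ΔE8, 4.15, 4.27 and 4.57 CPM in FL, 9.32, 8.85 and 10.3 CPM in siTAF5 and 4.97, 4.58 and 4.29 CPM in siNT. FL and siNT overlapped for H2AC13, with a log2 difference of −0.09 (95% interval −0.27 to 0.09). In GENCODE 29, 60.1% of the 75-base windows of H2AC13 also occur in H2AC14, so their reads may be divided between the genes.

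H2BC12 (chr6:27146361-27146855, minus strand) carried the largest share of the H2B counts. It had 120.5, 118.9 and 118.7 CPM in ΔE8, 48.9, 45.1 and 50.9 CPM in FL, 139, 142 and 135 CPM in siTAF5 and 67.5, 63.3 and 61.5 CPM in siNT. No groups overlapped, and the ΔE8 libraries lay nearer to siTAF5 than to siNT. The log2 change was 1.12 ± 0.04 in siTAF5 against siNT (adjusted p = 1.09e-14), −1.52 ± 0.04 in FL against siTAF5, −0.22 ± 0.03 in ΔE8 against siTAF5 (adjusted p = 4.53e-05) and 1.30 ± 0.04 in ΔE8 against FL (adjusted p = 2.52e-15).

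H2BC21, in the chromosome 1 cluster (chr1:149884459-149886682, minus strand), showed another ΔE8 level. It had 17.2, 17.9 and 19.1 CPM in ΔE8, 9.12, 9.30 and 9.81 CPM in FL, 29.3, 28.5 and 27.5 CPM in siTAF5 and 18.4, 17.4 and 17.97 CPM in siNT. The ΔE8 and siNT libraries overlapped, with a log2 difference of 0.01 (95% interval −0.09 to 0.11, adjusted p = 0.912), whereas siTAF5 was 0.66 ± 0.05 above siNT, and in FL against siNT H2BC21 fell by 0.93.

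The other H2B genes that averaged at least 5 CPM lie on chromosome 6. H2BC11 had 10.9, 11.4 and 12.3 CPM in ΔE8, 3.89, 4.17 and 3.97 CPM in FL, 12.6, 12.9 and 12.6 CPM in siTAF5 and 7.36, 6.38 and 6.68 CPM in siNT. ΔE8 was just under siTAF5, with a log2 difference of −0.15, which did not pass the threshold (95% interval −0.27 to −0.02, adjusted p = 0.0614) and did under 4 other settings (adjusted p 0.0313 to 0.0392). H2BC15 had 14.98, 14.5 and 15.03 CPM in ΔE8, 9.03, 9.16 and 9.05 CPM in FL, 16.1, 15.7 and 15.5 CPM in siTAF5 and 12.2, 11.9 and 12.95 CPM in siNT. Its increase in siTAF5 against siNT, 0.35 ± 0.05 (adjusted p = 3.4e-06), was the smallest of the 12. H2BC5 had 10.0, 9.37 and 9.45 CPM in ΔE8, 4.89, 5.60 and 5.47 CPM in FL, 10.8, 11.3 and 10.9 CPM in siTAF5 and 8.02, 8.46 and 7.67 CPM in siNT. Its 4 groups were apart, with a log2 change of 0.45 ± 0.06 in siTAF5 against siNT and −1.06 ± 0.07 in FL against siTAF5.

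**Figure D3:**
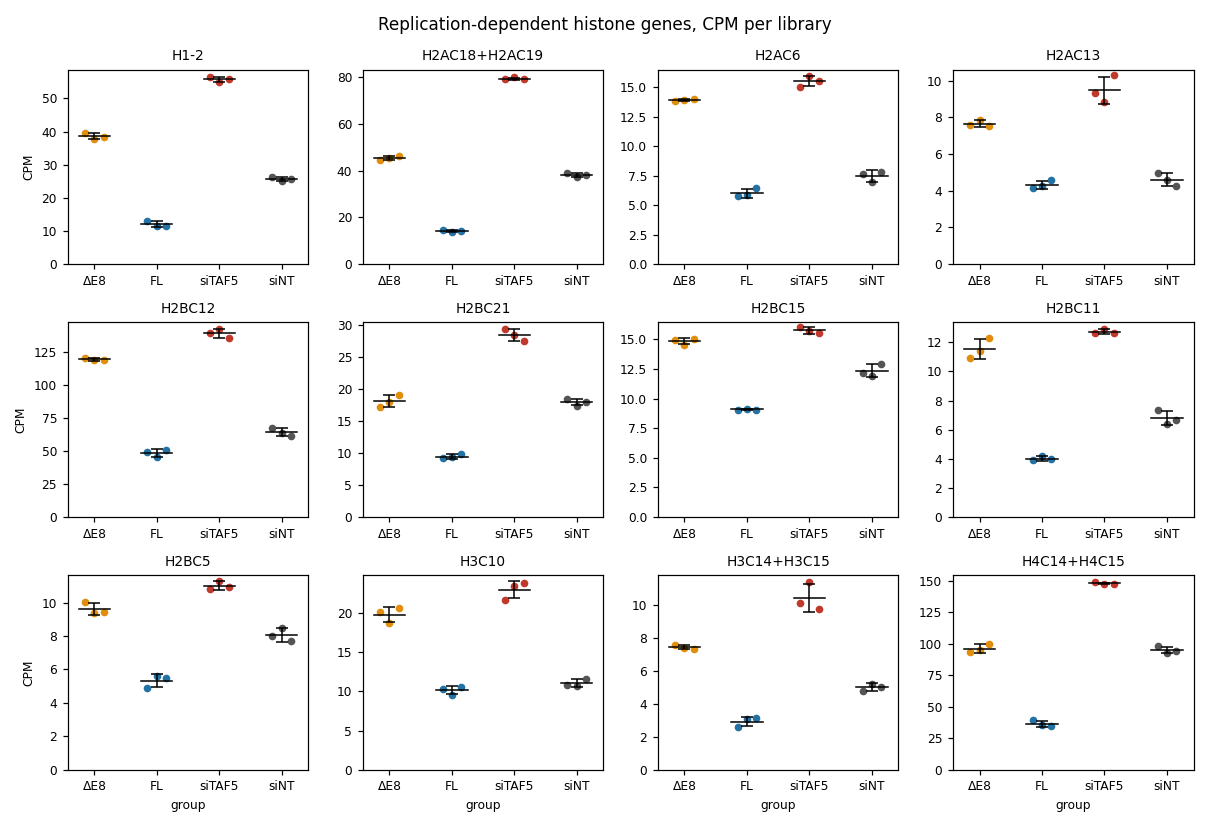
CPM (y axis, from 0) of the 12 histone genes or copy pairs with a mean of at least 5 CPM, by group (x axis); points are the 3 libraries, the line is the mean and the bar its SD. In every panel the FL libraries lie under the ΔE8 and siTAF5 libraries, and in the H2BC21 and H4C14+H4C15 panels ΔE8 overlaps siNT.

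H3C10 on chromosome 6 had 20.1, 18.8 and 20.6 CPM in ΔE8, 10.3, 9.58 and 10.6 CPM in FL, 21.7, 23.5 and 23.8 CPM in siTAF5 and 10.8, 10.7 and 11.6 CPM in siNT. Here FL lay just under siNT, with a log2 difference of −0.12 (95% interval −0.24 to 0.01, adjusted p = 0.11; 0.0417 with upper-quartile factors), and ΔE8 was 0.96 ± 0.06 above FL (adjusted p = 1.41e-10). The pair H3C14 and H3C15 on chromosome 1 had 7.58, 7.39 and 7.36 CPM in ΔE8, 2.60, 3.06 and 3.13 CPM in FL, 10.1, 11.4 and 9.81 CPM in siTAF5 and 4.77, 5.24 and 5.05 CPM in siNT. The groups were apart, with a log2 change of −0.79 ± 0.09 in FL against siNT (adjusted p = 4.08e-07) and 0.57 ± 0.08 in ΔE8 against siNT.

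The H4 pair H4C14 and H4C15 on chromosome 1 had 93.1, 95.1 and 100.1 CPM in ΔE8, 39.2, 35.4 and 34.7 CPM in FL, 148.6, 147.7 and 147.4 CPM in siTAF5 and 98.0, 93.0 and 94.4 CPM in siNT. ΔE8 and siNT overlapped, with a log2 difference of 0.01 (95% interval −0.06 to 0.09, adjusted p = 0.771). The siTAF5 libraries were 0.64 ± 0.03 above siNT (adjusted p = 1.34e-11), and the log2 change of FL was −1.38 ± 0.04 against siNT and −2.02 ± 0.04 against siTAF5 (4.04-fold lower, adjusted p = 1.49e-18).

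Divided by chromosome, the 11 genes on chromosome 1 summed to 170 ± 5.28 CPM in ΔE8, 65.2 ± 1.87 in FL, 268 ± 1.88 in siTAF5 and 158 ± 3.67 in siNT. The 48 genes on chromosome 6 summed to 263 ± 2.51, 116 ± 3.70, 310 ± 2.71 and 155 ± 3.58 CPM in the same groups. Relative to siNT, the ΔE8 sum was 108% on chromosome 1 and 170% on chromosome 6, the FL sum 41.3% and 75.1%, and the siTAF5 sum 170% and 200.3%. The H4C14 and H4C15 pair gave 56.9% of the chromosome 1 counts and 93.4% of the H4 counts, so these 2 sums largely share it. This contrast between chromosomes was not carried by every gene. Among the 12 genes or pairs with at least 5 CPM, ΔE8 stood at 101% to 148% of siNT for the 4 on chromosome 1. For the 8 on chromosome 6 it stood at 119% to 186%, so the ranges overlapped. Of the tested members under 5 CPM, H2AC20, H2BC18 and H3C13 on chromosome 1 stood at 140%, 168% and 239%. Those on chromosome 6 ran from 113% (H2AC16) to 565% (H4C12). The siNT counts were only 6, 8 and 2 for H3C13 and 3, 1 and 1 for H4C12. Of the 75-base windows of H3C13, 27.6% also occur in H3C14 and H3C15, and H4C12 cannot be read apart from H4C11. The difference between chromosomes was not tested.

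**Figure D4:**
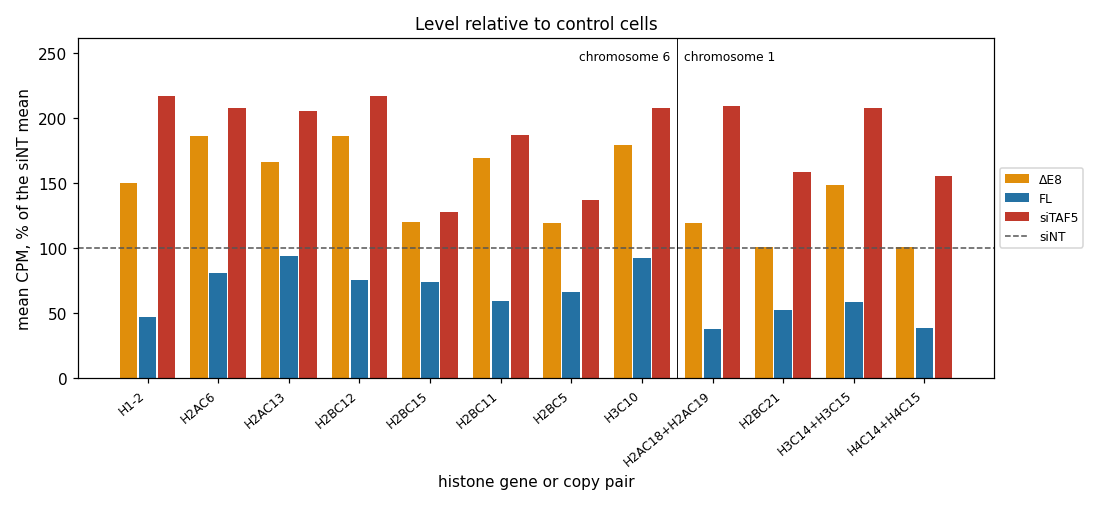
Mean CPM of 12 histone genes or copy pairs (x axis, chromosome 6 left of the line and chromosome 1 right of it) in ΔE8, FL and siTAF5 as percent of the siNT mean (y axis); the dashed line is siNT at 100%. The FL bars of H2AC18+H2AC19 and H4C14+H4C15 reach 37.3% and 38.3%, and the ΔE8 bars of H2BC21 and H4C14+H4C15 reach 101%.

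Of the 26 tested members under 5 CPM, 12 were higher and none lower in siTAF5 against siNT, where 24.7% of all rows were called higher and 25% lower. In FL against siTAF5, 10 were lower and 1 higher, with 24.4% of all rows called in each direction. In ΔE8 against FL, 6 were higher and none lower, and the count of higher members was near the 17.3% of all rows called higher. H4C8, an H4 gene on chromosome 6, departed from the H4C14 and H4C15 pair. It had 6.88, 7.70 and 7.34 CPM in ΔE8, 3.53, 4.06 and 4.29 CPM in FL, 5.85, 6.35 and 6.70 CPM in siTAF5 and 2.23, 2.36 and 2.35 CPM in siNT. All 3 other groups were above siNT, by 1.66 ± 0.09 in ΔE8, 0.76 ± 0.10 in FL and 1.45 ± 0.09 in siTAF5 (largest adjusted p = 1.87e-06). The further rise of ΔE8 over siTAF5, 0.21 ± 0.08 with adjusted p = 0.0451, was lost under 8 other settings (adjusted p 0.077 to 0.152).

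H2BC4, an H2B gene on chromosome 6, had 3.15, 2.92 and 3.30 CPM in ΔE8, 0.85, 1.47 and 1.30 CPM in FL, 3.49, 3.68 and 3.84 CPM in siTAF5 and 1.34, 1.09 and 1.499 CPM in siNT. FL overlapped siNT, and siTAF5 was 1.49 ± 0.15 above siNT (adjusted p = 6.72e-08). H2BC18, on chromosome 1, overlaps FCGR1A on the other strand and a row without a gene name on the same strand, and reads may be shared. It was called higher in ΔE8, FL and siTAF5 against siNT, by 0.74, 0.44 and 0.45, and the FL and siTAF5 calls were lost without 1 of several libraries (adjusted p up to 0.205 and 0.151). Both calls were also lost with DESeq2 (adjusted p = 0.0942 and 0.0988) and with no count filter (0.0782 and 0.0603), and the FL call with limma voom (0.0776), upper-quartile factors (0.0581) and only the 2 groups in the model (0.0771). H4C11 and H4C12 cannot be read apart: all 238 of the 75-base windows of H4C12 occur in H4C11, and the counts alternated between them, for example 16, 0 and 16 for H4C11 and 0, 18 and 0 for H4C12 in siTAF5. Their sums were 34, 17 and 21 counts in ΔE8, 19, 17 and 18 in FL, 16, 18 and 16 in siTAF5 and 6, 17 and 17 in siNT, and these overlapped.

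Histone genes often lie head to head, transcribed away from a shared promoter region. At most 500 bases lay between the genes of 11 such pairs. Of these, 10 joined an H2A and an H2B gene and 1 an H2B and an H3 gene. In 7 pairs both genes were tested. The pair with an H3 gene, H3C12 and H2BC17, is not a separate region. H3C12 overlaps H2AC17 on the same strand, and the H2AC17 start lies between H3C12 and H2BC17. The log2 changes of neighbours lay near each other in some pairs and further apart in others. In the pair H2BC4 and H2AC6, 218 bases apart, the log2 change in FL against siTAF5 was −1.64 and −1.37, and in ΔE8 against FL 1.40 and 1.21. H2BC11 and H2AC11, 247 bases apart, changed by −1.67 and −1.28 in FL against siTAF5 and by 1.52 and 1.01 in ΔE8 against FL. In FL against siTAF5 H2BC13 differed by −0.16 (not called) beside H2AC13 at −1.14, H2BC12 changed by −1.52 beside H2AC12 at −0.25 (not called), H2BC15 by −0.80 beside H2AC15 at −0.56 (not called), and H2AC17 by −0.88 beside H2BC17 at −0.50 (not called). H2BC13, H2AC12, H2AC15 and H2BC17 averaged only 0.21 to 0.77 CPM, and their changes were imprecise (SE 0.26 to 0.40). A difference between neighbours was not tested.

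H2BC21 and H2AC20, 235 bases apart on chromosome 1, went opposite ways in FL against siTAF5. H2AC20 had 0.67, 0.59 and 0.83 CPM in ΔE8, 0.88, 0.69 and 0.77 CPM in FL, 0.49, 0.33 and 0.56 CPM in siTAF5 and 0.63, 0.50 and 0.37 CPM in siNT. FL lay above siTAF5 in all libraries, by 0.77 ± 0.25 on the log2 scale (adjusted p = 0.0158), while H2BC21 fell by 1.60 in the same comparison. The H2AC20 call rested on few counts and was lost without siTAF5 replicate 2 (adjusted p = 0.0931) or FL replicate 1 (adjusted p = 0.0793). In siTAF5 against siNT H2AC20 differed by −0.10 (95% interval −0.65 to 0.44). H2AC12, which lies 250 bases from H2BC12, had 0.21 CPM on average and was called higher in ΔE8 against siNT only, by 1.00.

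**Figure D5:**
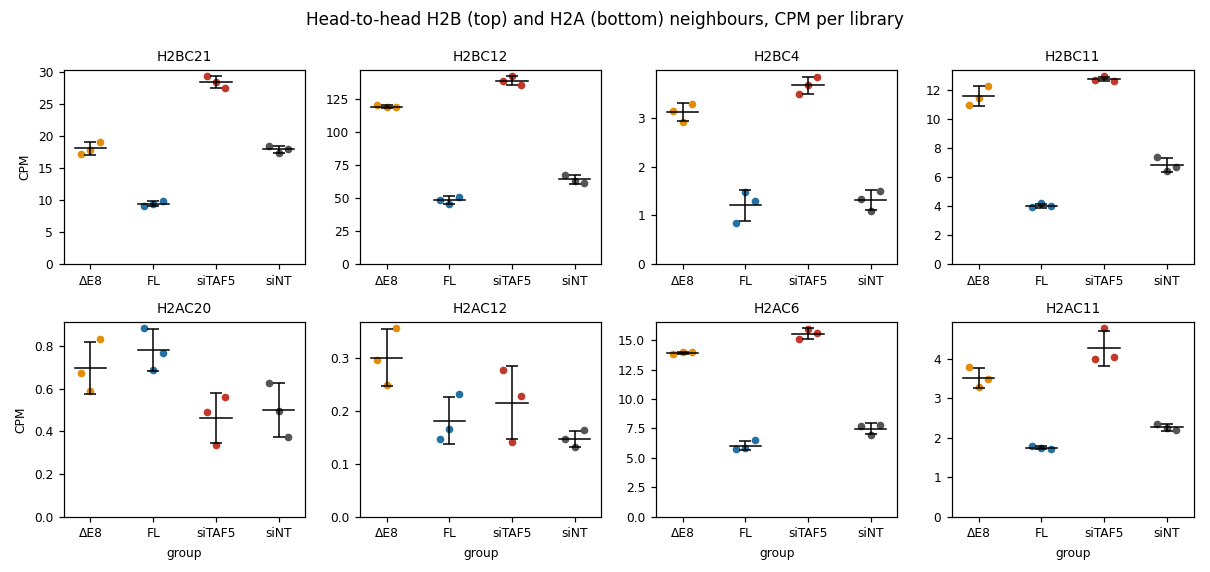
CPM (y axis, from 0, different scales) of 4 head-to-head neighbours, the H2B gene above and its H2A partner below, by group (x axis); points are the 3 libraries, the line is the mean and the bar its SD. H2BC21 has its lowest libraries in FL, at 9.12 to 9.81 CPM, while H2AC20 has 0.69 to 0.88 CPM there and 0.33 to 0.56 CPM in siTAF5.

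Genes that control histone mRNA or encode histone chaperones were followed in the same fit. The counts of the 4 lists that follow stand against 24.7% of all rows called higher and 25% lower in siTAF5 against siNT, 24.4% higher and 24.4% lower in FL against siTAF5, and 17.3% higher and 19.7% lower in ΔE8 against FL. Of 25 histone expression factors, which include NPAT, the stem-loop binding protein SLBP, and subunits of the cleavage machinery, 11 were higher and 6 lower in siTAF5 against siNT, 13 higher and 2 lower in FL against siTAF5, and 7 higher and 6 lower in ΔE8 against FL. Their median log2 change in these comparisons was 0.03, 0.08 and −0.02. NCBP1, a subunit of the cap-binding complex, was 0.35 ± 0.03 higher in siTAF5 than in siNT, CPSF3, the endonuclease that cuts histone pre-mRNA, 0.25 ± 0.03 higher, CDK2, the cyclin E kinase that phosphorylates NPAT, 0.20 ± 0.02 higher, and SYMPK, a scaffold of the cleavage complex, fell by 0.24. In ΔE8 against FL, SYMPK fell by 0.20, CCNE1, which encodes cyclin E1, by 0.19, and ZNF473, a factor of histone 3′ processing, by 0.25, and CDK2 was 0.14 ± 0.02 higher. None of these reached the size of the changes of H1-2 or H2BC12.

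Of 32 genes of G1/S and DNA replication, 12 were higher and 11 lower in siTAF5 against siNT, 24 higher and 2 lower in FL against siTAF5, and 8 higher and 14 lower in ΔE8 against FL. RRM2, a ribonucleotide reductase subunit, was 0.61 ± 0.03 higher in siTAF5 than in siNT and POLA2, a subunit of DNA polymerase alpha, 0.48 ± 0.03 higher, while TK1, thymidine kinase, fell by 0.54 and E2F1, a transcription factor of S-phase entry, by 0.48. In FL against siTAF5, TK1 was 0.72 ± 0.03 and E2F1 0.44 ± 0.03 higher, RRM2 fell by 0.12 (adjusted p = 0.000734), and POLA2 differed by −0.04 (adjusted p = 0.257). In ΔE8 against FL, RRM2 was 0.40 ± 0.03 and POLA2 0.23 ± 0.03 higher, while TK1 fell by 0.35 and E2F1 by 0.43. RRM2 thus changed in the same direction as most called histone members in these 3 comparisons, and TK1 and E2F1 in the other direction. Of 18 G2/M genes, 4 were higher and 10 lower in siTAF5 against siNT, 16 higher and 2 lower in FL against siTAF5, and 3 higher and 8 lower in ΔE8 against FL. The summed level of the G1/S list was 6688 to 6813 CPM in ΔE8, 6683 to 6858 CPM in FL, 6081 to 6098 CPM in siTAF5 and 5918 to 5972 CPM in siNT. The share of cells in S phase was not measured, and its part in the histone result was not tested.

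The 11 replication-independent histone genes listed, which are used throughout the cell cycle and mostly carry poly(A) tails, showed smaller differences. In siTAF5 against siNT, 9 were higher and none lower, in FL against siTAF5 2 were higher and 6 lower, and in ΔE8 against FL 5 were higher and 1 lower, with medians of 0.17, −0.16 and 0.17. H3-3A, which encodes the H3.3 variant, had 631 ± 10.2 CPM in ΔE8, 547 ± 9.37 CPM in FL, 716 ± 9.3 CPM in siTAF5 and 571 ± 8.4 CPM in siNT.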

How the data were processed

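The authors deposited 1 table of expected counts, that is reads per gene as estimated by their quantifier and without normalization, and 46.5% of its entries were fractional. Per the submitters' processing notes, the tools were DESeq2, Partek 10.0.23.0531, STAR 2.7.0f and cutadapt 1.18 and the build hg38, in no stated order. The quantifier, its annotation and its use of strand are not given in the sources at hand. The library kit was stranded, per the labels' protocols. The design assumed counts; these estimates were rounded, which moved library totals by at most 91.3.

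The software was edgeR 4.0.16, limma 3.58.1 and DESeq2 1.42.0 in R 4.3.3, with Python 3.11.15 for sequences and figures. Counts of 3 copy pairs were added. Rows passing filterByExpr (minimum count 10) numbered 19421, and rows with an ID but no gene name (8010 of 32010 before filtering) stayed in. After scaling by trimmed mean of M values, all 12 libraries entered 1 quasi-likelihood model with a mean per group. The 6 comparisons were two-sided, adjusted by Benjamini-Hochberg, with a threshold of 0.05. An SE is the size of the log2 change divided by the square root of F. No spike-in is named, so a change is relative to most other genes. Library totals were 41.8 to 62.5 M, and replicate pairs differed by more than counting error (chi-square per degree of freedom 2.57 to 4.99).

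The members and lists were chosen with earlier results of these data known. Histone members with at least 5 CPM on average were given in full and the others by name or range. Of each other list, the 4 members with the smallest p in each of 2 comparisons, ΔE8 against FL and siTAF5 against siNT, could be named. Alternatives were other scaling factors, count filters, tests, copies as separate rows, 2 groups only, a replicate block and leaving out each library.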

Additional observations from a re-analysis of the deposited data

How the results depend on the processing

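A fit with the replicate number as a block gave 25 higher and 0 lower members in siTAF5 against siNT, 1 and 20 in FL against siTAF5, 1 and 11 in ΔE8 against siTAF5, 17 and 0 in ΔE8 against FL, 4 and 11 in FL against siNT, and 22 and 0 in ΔE8 against siNT. Over all tested rows, same-numbered libraries did not deviate together from their group means (correlations −0.051 to 0.052). Whether same-numbered libraries were grown or prepared together is not stated, and a correlation over all rows cannot settle it.

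The main directions held: over all alternatives no sum changed sign, and 190 of the counts of members stayed within 1.5 times the reported count while 14 did not. In siTAF5 against siNT, leaving out 1 library gave 18 to 21 higher members, and in ΔE8 against FL 17 to 18. For members higher in FL against siTAF5 the count was 0 to 1 without 1 library. It was 0 with a minimum count of 50, where 18 members were tested and H2AC20 was not among them. Members higher in ΔE8 against siTAF5 numbered 0 with upper-quartile factors, library totals only, no count filter or DESeq2, 2 with limma voom, and 0 to 4 without 1 library. Lower members in this comparison numbered 8 with DESeq2 and 8 to 11 without 1 library. Members higher in FL against siNT numbered 1 with DESeq2 and 1 to 3 without 1 library, and in ΔE8 against siNT 15 with a minimum count of 50, where 18 members were tested.

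With library totals only, the log2 ratio of the sum of all members in FL against siTAF5 was −1.72 and of chromosome 1 −2.09, and in ΔE8 against siTAF5 of chromosome 6 −0.257. With upper-quartile factors it was −0.444 for all members, −0.626 for H2A and −0.262 for chromosome 6 in ΔE8 against siTAF5, and 0.428 for all members, 0.542 for H1 and 0.724 for chromosome 6 in ΔE8 against siNT. Library totals only also called 3749 of all rows higher and 5785 lower in FL against siTAF5, against 4745 and 4732.

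Log2 changes near 0 turned sign. Without 1 library, H2AC20 in siTAF5 against siNT ran from −0.30 to 0.082 (0.082 without siNT replicate 1 and 0.075 without siTAF5 replicate 2), H2BC18 in FL against siTAF5 from −0.14 to 0.19 (0.19 without FL replicate 1 and 0.075 without siTAF5 replicate 1), and H2BC4 in FL against siNT from −0.32 to 0.067 (without FL replicate 1). H2BC18 gave 0.0012 with DESeq2. In ΔE8 against siNT, H2BC21 ran from −0.039 without ΔE8 replicate 3 to 0.038, with −0.016 without siNT replicate 2, and H4C14+H4C15 from −0.024 to 0.033, with −0.0044. With upper-quartile factors these 2 gave −0.035 and −0.029, and with no count filter −0.012 and −0.0062. The cause was not tested. Adding H4C11 to H4C12, chosen after seeing the data, moved no count of members called by more than 1.5 times.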
